A study of Drosophila melanogaster with 2 samples.

Results

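The genes described here are maternal transcripts whose level was much higher again when the embryo's own genome was broadly active. They were chosen by 2 values of the normalized table of 84 single Drosophila melanogaster embryos, in which position 1 is the youngest embryo in pseudo-time and position 84 the oldest. A gene was taken when its mean normalized count over positions 1 to 10 was at least 10 and its mean over positions 50 to 58 was at least 3 times that mean. This took 31 of 7629 genes. A further 4199 genes had the same minimum at positions 1 to 10 without the 3-fold difference and are called the other maternal transcripts, and 127 genes had a mean under 1 at positions 1 to 10 and at least 10 at positions 50 to 58 and are called zygotic genes.

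All embryos were of genotype WT from line 737 of the Drosophila Genetic Reference Panel, an inbred wild-caught line, and none was treated. They were laid in cages A (47 embryos) and B (37 embryos) and collected in 3 consecutive intervals (28, 33 and 23 embryos). In the study these were collections of 1 h, processed at once or after 1 or 2 more hours. The ordered embryos were up to about 3 h old. Positions 11-29 held embryos of intervals 1 and 2 only, and cluster 6 of intervals 2 and 3 only, so that interval partly follows the groups. Embryos were sequenced one by one with a modified CEL-Seq2 protocol, which tags the 3′ ends of polyadenylated RNA. It counts each tagged molecule once through a unique molecular identifier (UMI). The authors ordered the embryos and grouped them in clusters from the same expression values, so that order and cluster are not independent of the levels below. Along pseudo-time the groups used here were positions 1-10 (10 embryos) and positions 11-29 (19 embryos), which together make cluster 1, then cluster 2 (11 embryos), cluster 3 (6), cluster 4 (3), cluster 5 (9, positions 50 to 58), cluster 6 (7), cluster 7 (10) and the last cluster, called cluster 9 here (9). By genotyping of the X and Y chromosomes, 30 embryos were female and 31 male, and 23 were not genotyped. An embryo had between 274425 and 2104120 UMIs in the genes of the table (median 931566) and between 5933 and 7389 genes detected. The median depth was 549925 UMIs in cluster 6, 643669 in cluster 9 and 1090742 in cluster 1.

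An early fly embryo runs on RNA that the mother loaded into the egg. Its nuclei first divide in a common cytoplasm with little transcription of their own, then stop, become enclosed by membranes in a step called cellularization, and transcribe many genes at once in the major wave of zygotic genome activation, while much of the maternal RNA is destroyed. A gene with both a maternal load and zygotic transcription leaves a single pool of molecules, and UMI counts carry no mark of which copies are maternal.

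The 31 members spanned a wide range in the values that chose them, which are given as a description without a test. The ratio of the mean over positions 50-58 to that over positions 1-10 was highest for hrg, the poly(A) polymerase hiiragi, at 30.6 (675 against 22 normalized counts). It was 27.4 for slam, a protein of the cellularization furrow (436 against 15.9), and 15.4 for BNIP3, a mitophagy receptor (166 against 10.8). The next 7 were wech, a TRIM-NHL protein of integrin adhesion sites (8.42), Keap1, a sensor of oxidative stress (8.01), trbl or tribbles, which holds back mitosis by removing the phosphatase String (7.96), Sxl, the sex switch (7.06), Elba2, an insulator factor (6.56), Nin, the centrosomal protein ninein (6.47), and CG9775 (5.91). The remaining 21 had ratios between 3.13 and 5.85. Among the 10 members highest at positions 50-58 were also retn (558), Bacc (530), kuk (520), zld (468), fax (433) and Lac (398). At the fold limit, sdt and CycT lay just inside with ratios of 3.13 each, and Su(H) and smo just outside with 2.98 each. At the limit on the first level, CG11791 and hfp lay just inside with 10.7 normalized counts each, and Septin5 and Nrt just outside with 9.25 and 9.22, although their ratios were 23.9 and 45.

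The first levels of the members were ordinary for maternal transcripts. Their median over positions 1-10 was 27.1 normalized counts (range 10.7 to 146), and that of the other maternal transcripts was 32.3 (range 10.0 to 1028). For 30 of 31 members the mean at positions 11-29 was between 0.8 and 1.25 times that at positions 1-10, which the rule used. The exception was Dsp1, an HMG-box repressor (18.4 against 14). The share of other genes within these limits was not computed, so that this count describes the members without setting them apart. Summed over all 31, the members made up 0.559% of the UMIs at positions 1-10 and 0.582% at positions 11-29. Their share was 0.619% in cluster 2 and 0.702% in the next, then 1.33% in cluster 4, 2.86% in the embryos of the rule and 3.45% in cluster 6. It was 3.19% for cluster 7 and 2.48% at the end. No embryo of positions 1 to 46 had a summed normalized count above 2015, and no embryo from position 50 on had one below 6409. The sum of 6409 was from an embryo of the rule, which asked for higher levels there than at positions 1-10. A gap between those embryos was thus set up by the choice. In the embryos after those of the rule, the lowest sum was 6543, in cluster 9.

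**Figure D1:**
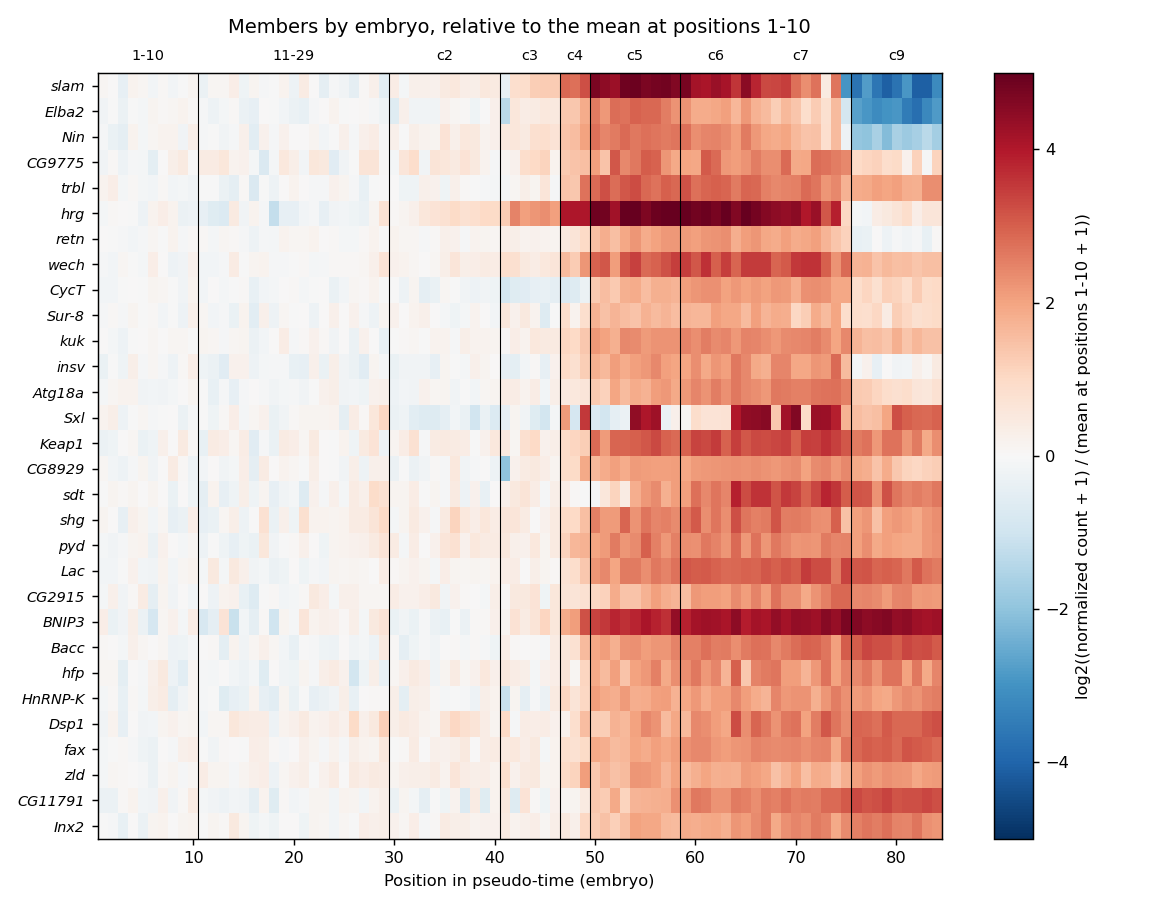
Level of 30 members (rows, grouped by the cluster of the highest mean) in each of 84 embryos (columns, position in pseudo-time), as the log2 ratio to its mean at positions 1-10 with 1 added to both; vertical lines separate the groups, with none between clusters 6 and 7, which interleave at positions 64 to 66. The members were chosen for the difference between positions 1-10 and 50-58; in cluster 9 slam, Elba2 and Nin lie below their first level, while BNIP3 lies above it.

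The members did not share one course afterwards. The highest group mean lay in cluster 5 for 5 members (slam, trbl, Elba2, Nin and CG9775), in cluster 6 for 6 (hrg, wech, kuk, retn, Sur-8 and CycT), in cluster 7 for 10 and in cluster 9 for the other 10 (among them BNIP3, Bacc, hfp, HnRNP-K, Dsp1, fax, zld, CG11791 and Inx2). In cluster 9, 4 members were under 10% of their highest mean (hrg, slam, Elba2 and Nin), 11 were under 50%, and 4 were under their own first level (slam, Elba2, Nin and retn). The extremes were slam, at 0.114% of its highest mean, and the 10 members that were still at their highest. Cluster 5 holds the embryos of the rule, so that a highest mean there or later was favoured by the choice. The shares of other genes with such courses were not computed, and these counts describe the members without setting them apart.

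The boost was tested in embryos that the rule did not use, cluster 6 against positions 11-29, with edgeR's quasi-likelihood test over 7619 genes. Calls needed an adjusted p (Benjamini-Hochberg) under 0.01 together with an absolute log2 fold change above 1. All 31 members were called higher in cluster 6, where 20.7% of all genes tested were called higher. Lower calls were 0 of 31 members and 36.8% of all genes tested (at an unadjusted p under 0.05, 0 members were lower, and DESeq2 called 0). Of the other maternal transcripts 612 of 4199 were called higher and 1929 lower, and all 127 zygotic genes were called higher. Cluster 6 follows directly on the embryos that chose the members, so that a high share called was set up by the choice, and the sizes are the content of this comparison. The members' log2 fold changes ran between 1.83 for zld and 5.36 for hrg with a median of 2.59, against a median of -0.23 over all genes tested. Normalized counts are shares of an embryo's UMIs, and the shift of all genes was -0.41 with library totals in place of TMM factors and -0.29 with DESeq2. With those scalings the median of the members was 2.42 and 2.51, and all 31 members remained called. In whole embryos, fewer cells of a type and less RNA per cell cannot be told apart. Every embryo of cluster 6 was above every embryo of positions 11-29 for 30 of 31 members, all but Sxl, and for 15.5% of all genes tested.

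Cluster 4, the 3 embryos at positions 47 to 49, came just before the embryos of the rule and shares the embryos of positions 11-29 with the comparison above. In cluster 4, 16 of 31 members were called higher than at positions 11-29, where 3.7% of all genes tested were called higher, and 0 members were called lower, where 20.8% were called lower. At an unadjusted p under 0.05, 28 members were higher and 1 lower, and DESeq2 called the same numbers, 16 and 0. Among the other maternal transcripts 4 of 4199 were called higher and 1082 lower, and among the zygotic genes 117 of 127 were called higher. The median log2 fold change was 1.10 for the members and 0.05 for all genes tested. The 16 called were hrg, slam, BNIP3, wech, trbl, Sxl, Elba2, Nin, CG9775, pyd, kuk, Bacc, insv, CG8929, HnRNP-K and zld.

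The 3 embryos of cluster 4 were not alike. Their summed normalized counts of members were 3332, 3222 and 5180, and the third, from cage B, was also the shallowest of the 3 with 382661 UMIs, against 945751 and 707061. Without the third embryo 10 of the 16 calls remained, and those of Sxl, kuk, Bacc, CG8929, HnRNP-K and zld were lost. Without the first or the second, all 16 remained and 3 or 5 more members were called. Whether age, cage or depth sets the third embryo apart was not tested.

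**Figure D2:**
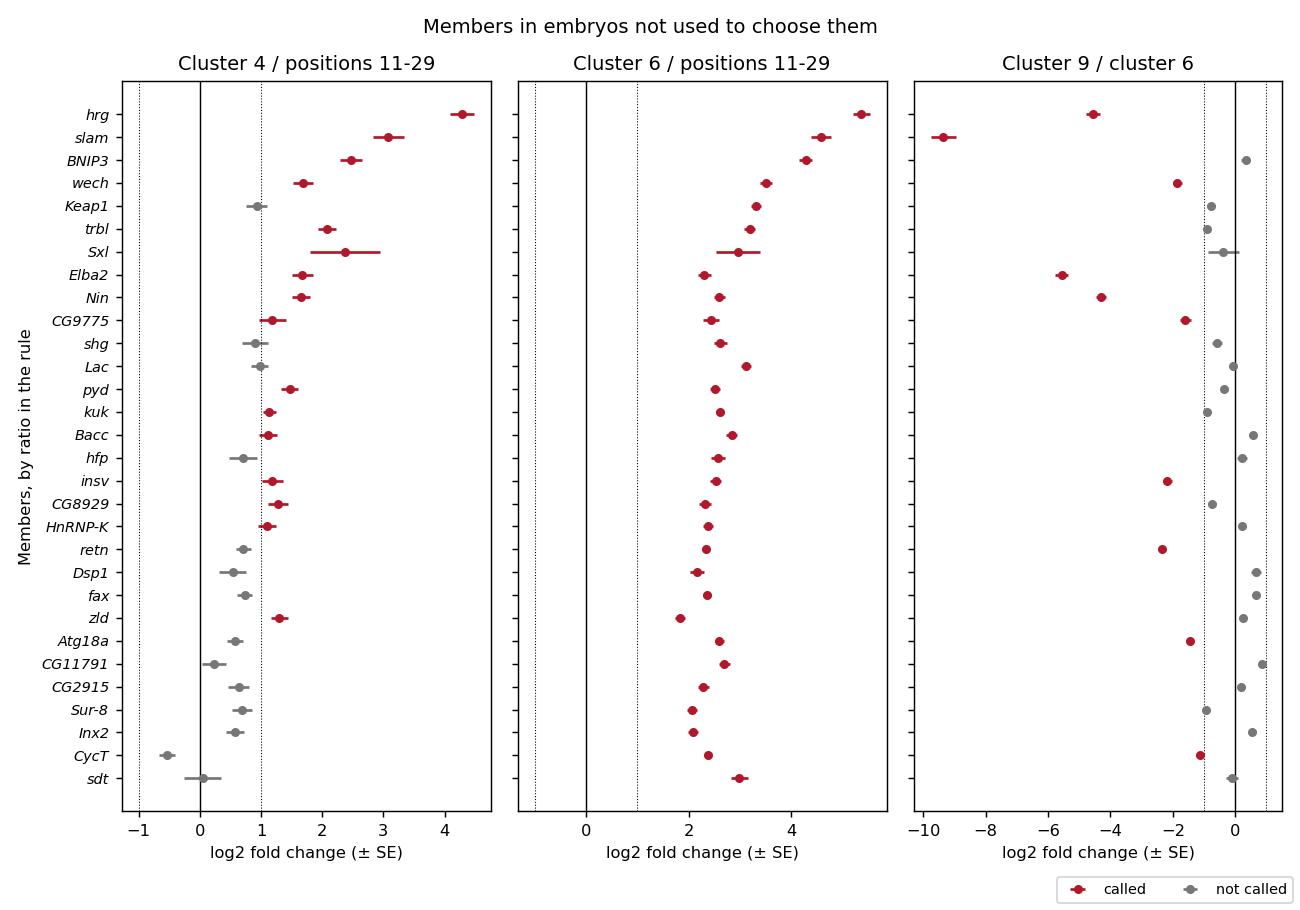
Log2 fold change (points) with its standard error (bars) of 30 members in 3 comparisons that use neither positions 1-10 nor positions 50-58: cluster 4 against positions 11-29, cluster 6 against positions 11-29, and cluster 9 against cluster 6. Red points passed both thresholds and grey points did not; dotted lines mark a log2 fold change of 1 in either direction, and in the right panel slam lies at -9.35 and CG11791 at 0.86.

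Before cluster 4 there was little movement. In cluster 2 against positions 11-29, 0 of 31 members were called in either direction, where 0.866% of all genes tested were called higher and 3.7% lower; at an unadjusted p under 0.05, 2 members were higher and 2 lower, and DESeq2 called 0. In cluster 3 against cluster 2, hrg alone was called higher (1.19% of all genes) and 0 members were called lower (2.93% of all genes), with 8 higher and 1 lower at an unadjusted p under 0.05 and the same calls, 1 and 0, by DESeq2. In cluster 4 against cluster 3, 14 members were called higher (2.61% of all genes) and 0 lower (11.3% of all genes), with 26 higher and 0 lower at an unadjusted p under 0.05; DESeq2 called 13 and 0, and without the third embryo of cluster 4 edgeR called 8 higher. A running median over 5 embryos, which from position 48 on takes in embryos of the rule, reached 2 times the first level by position 40 for 1 member, hrg, and by position 46 for 3 more, slam at 44, CG9775 at 45 and BNIP3 at 46. It did so by position 49 for 22 members and by position 50 for 29, and the last were sdt at 53 and Sxl at 54. The rule asked for at least 3 times the same first level in its embryos. Crossings from position 48 on were therefore set up by the choice and do not date an onset. The share of other genes with such a crossing was not computed.

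After the activation the members parted. In cluster 9 against cluster 6, which shares the embryos of cluster 6 with the comparison above, 10 of 31 members were called lower, where 15.9% of all genes tested were called lower, and 0 were called higher, where 28.8% were called higher. At an unadjusted p under 0.05, 8 members were higher and 17 lower. DESeq2 called CG11791 higher and did not call CycT, which left 9 called lower. The median was -0.59 for the members and 0.22 for all genes. The called members were slam, Elba2, hrg, Nin, retn, insv, wech, CG9775, Atg18a and CycT. Most of these calls lay in the last step. In cluster 7 against cluster 6, slam alone was called lower (1.19% of all genes) and 0 members were called higher (2.78% of all genes). At an unadjusted p under 0.05, 8 members were higher and 6 lower, and DESeq2 called 0 and 1. Besides slam, the lower members were Nin (-0.90), hrg (-0.82), Elba2 (-0.78), trbl (-0.50) and retn (-0.39). They had an adjusted p under 0.01 by edgeR and were short of the fold threshold. In cluster 9 against cluster 7, 11 members were called lower (14.2% of all genes), the same 10 and Sxl, and 0 higher (23.3% of all genes; 6 at an unadjusted p under 0.05, and 0 with DESeq2).

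Cellularization, nuclei and centrosomes come first among the roles. The furrow protein slam had 121, 114 and 157 normalized counts in cluster 4, against 10.7 to 21.4 (median 15.8) at positions 11-29 (log2 fold change 3.08 ± 0.26 SE, adjusted p = 5.9e-19 by edgeR). In cluster 6 it had 239 to 446 (median 299.5), and the log2 fold change was 4.57 ± 0.20 (adjusted p = 4.32e-39). The embryos of these groups did not overlap with those of positions 11-29. In cluster 9 slam had 0 to 1.41 normalized counts (median 0.316, 11 UMIs in 9 embryos), against 239 to 446 in cluster 6, a log2 fold change of -9.35 ± 0.41 (adjusted p = 2.96e-37) whose size depends on the few UMIs left. With Elba2, slam was one of 2 members whose mean in cluster 9 was at most 2.0 normalized counts.

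The nuclear lamina protein kuk (kugelkern), which shapes nuclei during cellularization, had 229 to 286 normalized counts in cluster 4, against 87.9 to 146 at positions 11-29 (1.14 ± 0.11), and 574 to 663 in cluster 6. In cluster 9 it had 295 to 386, without overlap with cluster 6; the log2 fold change between these clusters (-0.90 ± 0.09, adjusted p = 3.83e-15) was short of the fold threshold, so kuk was not called. The centrosome protein Nin had 126, 139 and 195 in cluster 4, against 32.6 to 61.7 at positions 11-29 (1.65 ± 0.15). In cluster 9 it had 9.69 to 18 (median 13.9), against 214 to 325 in cluster 6 (-4.30 ± 0.16), and every embryo of cluster 9 lay below every embryo of positions 11-29.

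Of the adhesion and polarity genes in the list described below, 3 were members. E-cadherin, shg, had 26.4, 26.4 and 38 normalized counts in cluster 4, against 9.56 to 27 (median 14.7) at positions 11-29, with overlap between the groups. Its log2 fold change there was short of the threshold (0.91 ± 0.21, adjusted p = 0.000173), so it was not called. In cluster 6 shg had 68.6 to 114 (2.62 ± 0.13). The ZO-1 homologue pyd had 75.1, 106 and 114 in cluster 4, against 24.8 to 54.1 at positions 11-29 (1.47 ± 0.14, adjusted p = 3.09e-16). The Crumbs-complex scaffold sdt (stardust) was the late one: it had 16.5, 13.2 and 12.2 in cluster 4, against 7.63 to 24.4 at positions 11-29 (0.05 ± 0.30, adjusted p = 0.916), and 54.9 to 164 in cluster 6 (2.99 ± 0.16). Its embryos in cluster 5 overlapped those of positions 1-10, with a lowest value of 12 against a highest of 13.7.

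Other adhesion and junction proteins had higher starting levels. The septate junction protein Lac (Lachesin) had 514 to 628 normalized counts in cluster 6 (median 559), against 58.9 to 102 (median 72.2) at positions 11-29 (3.11 ± 0.09), and 443 to 647 in cluster 9. The adhesion protein wech had 878 to 1381 in cluster 6 (median 1221), against 99.6 to 175 (median 113) at positions 11-29 (3.50 ± 0.12), the highest level of any member in cluster 6. In cluster 9 wech had 291 to 363 and was called lower than in cluster 6 (-1.85 ± 0.15). The gap junction protein Inx2 had 412 to 624 in cluster 6, against 102 to 169 at positions 11-29 (2.08 ± 0.10), and 552 to 819 in cluster 9.

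The mitotic inhibitor trbl had 153, 144 and 379 normalized counts in cluster 4, against 34.1 to 65.5 at positions 11-29 (2.08 ± 0.14, adjusted p = 7.43e-24), with the third embryo at more than the sum of the others. In cluster 6 trbl had 390 to 517 (median 427, 3.19 ± 0.11), and in cluster 9 195 to 287, without overlap with cluster 6 and short of the fold threshold against it (-0.92 ± 0.13, adjusted p = 4.24e-10).

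Of the members that act on RNA, hrg was the first called along pseudo-time, and its log2 fold changes in clusters 4 and 6 were the largest of all members. It had 375, 381 and 376 normalized counts in cluster 4, nearly the same in all 3 embryos, against 9.12 to 37 (median 19.3) at positions 11-29 (4.28 ± 0.20, adjusted p = 1.97e-35). In cluster 3 it had 54 to 126, against 22.7 to 44.8 in cluster 2 (1.47 ± 0.20, adjusted p = 7.73e-09), with no overlap. In cluster 9 it had 20.1 to 41.4 (median 31.3), against 621 to 798 (median 696) in cluster 6 (-4.56 ± 0.22, adjusted p = 7.41e-35), a level within a factor of 1.38 of its first mean. In cluster 7 its embryos were spread between 46.3, at position 75, and 571. The splicing factor hfp and the RNA-binding protein HnRNP-K instead had their highest means in cluster 9, 62.7 ± 12.7 and 132 ± 20.2 (SD, n = 9), against 53.3 ± 15.4 and 112 ± 9.75 in cluster 6 (SD, n = 7), and neither difference passed the test (0.21 ± 0.15 and 0.22 ± 0.12).

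**Figure D3:**
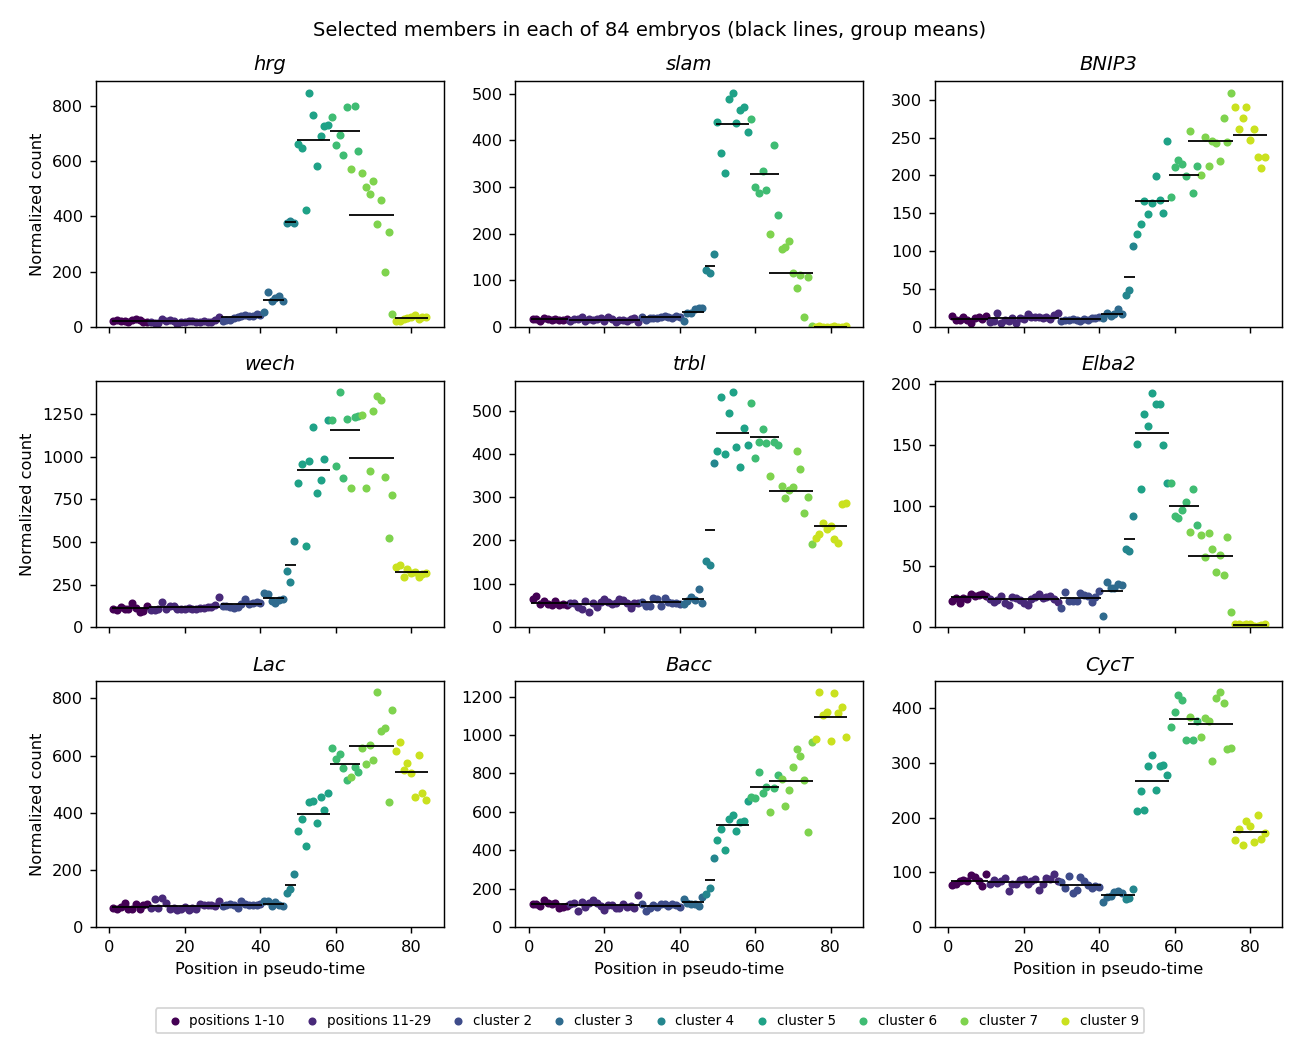
Normalized count of 9 members in each of 84 embryos by position in pseudo-time, coloured by group, with group means as black lines; vertical axes start at 0 and differ between panels. Levels of hrg, slam and Elba2 are low again at positions 76 to 84, those of BNIP3 and Bacc stay high, and CycT is lower in clusters 3 and 4 than at positions 1-10 before its level is higher in cluster 5.

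Members that act on chromatin and transcription included the pioneer factor zld (Zelda), which opens the genome for activation. It had the smallest log2 fold change of the members in cluster 6, 1.83 ± 0.10 (391 to 569 normalized counts with a median of 461, against 109 to 180 with a median of 153 at positions 11-29, adjusted p = 5.92e-32). Its embryos in cluster 4 had 263, 286 and 553, and its highest mean was in cluster 9 (579 ± 40.6, SD, n = 9). The insulator proteins Elba2 and insv (insensitive) had 84.3 to 119 and 47.7 to 67.8 in cluster 6, against 18.2 to 27.3 and 7.95 to 15.1 at positions 11-29 (2.30 ± 0.12 and 2.52 ± 0.11). In cluster 9 both were called lower than in cluster 6: Elba2 had 0.852 to 2.85 (-5.56 ± 0.21) and insv 8.94 to 16.8 (-2.17 ± 0.13). The level of insv in cluster 9 was thus within the range of positions 11-29 or just above it, while that of Elba2 was below it in every embryo.

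The ARID-domain transcription factor retn (dead ringer) had 612 to 723 normalized counts in cluster 6, against 121 to 164 at positions 11-29 (2.34 ± 0.08), and 112 to 152 in cluster 9 (-2.36 ± 0.10 against cluster 6). CycT, the cyclin of the elongation kinase P-TEFb, was the one member with a negative log2 fold change in cluster 4, where it had 50.8, 53.6 and 69.5, against 65.9 to 96.6 at positions 11-29 (-0.54 ± 0.13, adjusted p = 0.000261, short of the fold threshold). It had 343 to 425 in cluster 6 (2.37 ± 0.08 against positions 11-29). Dsp1 had 101 to 138 in cluster 9, against 45.5 to 112 in cluster 6 (0.67 ± 0.15).

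Members of stress response and autophagy were BNIP3, Keap1 and Atg18a. BNIP3 had 41.8, 49.3 and 107 normalized counts in cluster 4, against 4.43 to 18.1 (median 11.4) at positions 11-29 (2.47 ± 0.18, adjusted p = 2.55e-22), and 171 to 220 in cluster 6 (median 211, 4.28 ± 0.12). It was at 210 to 291 (median 261) in cluster 9, which did not pass the test against cluster 6 (0.33 ± 0.14). Keap1 had 114 to 169 in cluster 6 (median 146), against 9.09 to 23 (median 15.1) at positions 11-29 (3.31 ± 0.11), and was short of the fold threshold in cluster 4 (0.93 ± 0.17). Atg18a had 153 to 203 in cluster 6, against 24.8 to 41.2 at positions 11-29 (2.60 ± 0.09), and was called lower in cluster 9 at 49.4 to 84.4 (-1.44 ± 0.10).

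The other members were Sur-8, a scaffold of Ras signalling, fax (failed axon connections), Bacc, CG9775, CG8929, CG11791 and CG2915. Of these, Bacc had the highest level of any member in cluster 9, 970 to 1222 normalized counts, against 675 to 809 in cluster 6 (0.58 ± 0.12), and CG11791 the largest positive log2 fold change of the members between these clusters, 0.86 ± 0.11 (104 to 122, against 51.8 to 71.7), short of the threshold with edgeR. The gene Bacc overlaps Pgk and an antisense RNA on the other strand, CG2915 overlaps CG2906, retn overlaps lncRNA:CR45153, and pyd overlaps CG8379. Sur-8 overlaps CG34279 on the same strand, and Sxl overlaps lncRNA:CR46494 on the other. The strand setting of the counting is not given in the sources used here, so that reads of overlapping genes cannot be told apart.

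Sex was compared with cluster as a factor, since the rule averages over both sexes. Cluster 5 is the embryos whose values chose the members, so the comparison that is independent of the rule is that in clusters 6, 7 and 9 alone. There, at an adjusted p under 0.01, Sxl was the 1 member called higher in females, where 0.289% of all genes tested were called higher, and 0 members were called lower, where 0.0656% were called lower. At an unadjusted p under 0.05, 4 members were higher in females and 2 lower, and DESeq2 called 1 and 0. With cluster 5 added (17 female and 18 male embryos in clusters 5 to 9), Sxl and Dsp1 were called higher (0.354% of all genes) and 0 members lower (0.105% of all genes), with 8 higher and 0 lower at an unadjusted p under 0.05; DESeq2 called 2 and 0.

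Sxl, the RNA-binding protein that sets female development in response to the number of X chromosomes, was far higher in females. In cluster 6 the 2 females had 661 and 673 normalized counts, against 31.6 to 55.5 in 5 males. In cluster 7 the 7 females had 447 to 757, against 57.9 to 102 in 3 males, and in cluster 9 the 5 females had 216 to 286, against 81.5 to 119 in 4 males. The log2 ratio of females to males over these clusters was 2.58 ± 0.21 (adjusted p = 9.54e-12), and by cluster it was 3.87, 2.90 and 1.35, a difference between clusters with an adjusted p of 2.02e-06 in a test added after seeing the data. In cluster 5, given as a description, the 3 females had 665, 505 and 578, against 15.2 to 35.4 in the 6 males, and the mean over positions 1-10 was 29.7 ± 3.75 (SD, n = 10). The sexes did not overlap in any of the 4 clusters. The males of cluster 5 alone would not have met the rule, as their mean was 23.1 ± 6.97 (SD, n = 6). In clusters 7 and 9, however, every male was above every embryo of positions 1-10, where the highest value was 36.6; the males were not tested against those embryos. In cluster 4 the 2 females had 132 and 354, against 16.3 in 1 male. In cluster 3 the 4 females had 22 to 32.9, against 18.9 and 15 in 2 males, also without overlap but much closer together.

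Among the other 5 members on the X chromosome were Dsp1, sdt, zld and Inx2. For Dsp1 the log2 ratio of females to males was 0.38 ± 0.10 in clusters 6, 7 and 9, which did not pass the test (adjusted p = 0.0603). Its call with cluster 5 added (0.46 ± 0.09, adjusted p = 0.00305) rested on embryos of the rule, in which the females had 59.3, 78.2 and 69.6 normalized counts, against 33.8 to 56.3 in the males. For sdt the females of cluster 6 had 127 and 164, against 54.9 to 90 in the males, whereas in cluster 9 the females had 72.5 to 84.1, against 63 to 121 in the males. In clusters 6, 7 and 9 together sdt was not called (0.29 ± 0.13, adjusted p = 0.44), while its difference between these clusters passed in the same added test (adjusted p = 0.00425); with cluster 5 added that difference did not pass (adjusted p = 0.0642). The log2 ratio of females to males of the 5 members was above 0 for 5 of 5 in clusters 5, 6 and 7 and for 2 of 5 in cluster 9, with medians of 0.52, 0.43, 0.19 and -0.09, of which those of cluster 5 are from embryos of the rule. Among the 25 autosomal members the ratio was above 0 for 22, 14, 13 and 10, with medians of 0.16, 0.02, 0.04 and -0.05. Among 778 X-linked genes of the other maternal transcripts it was above 0 for 360, 393, 489 and 488. Their medians were -0.03, 0.00, 0.09 and 0.12. Which library an embryo came from was not analysed, so that sex and library within a cluster cannot be told apart. In cluster 6 the males were at positions 59 to 63 and the females at 65 and 66. In cluster 9 the males were at positions 76 to 79 and the females at 80 to 84. Sex and position therefore cannot be told apart in clusters 6 and 9, while in clusters 5 and 7 females and males were interleaved. Position within a cluster was not a term of the fit, and its part in these ratios was not tested.

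**Figure D4:**
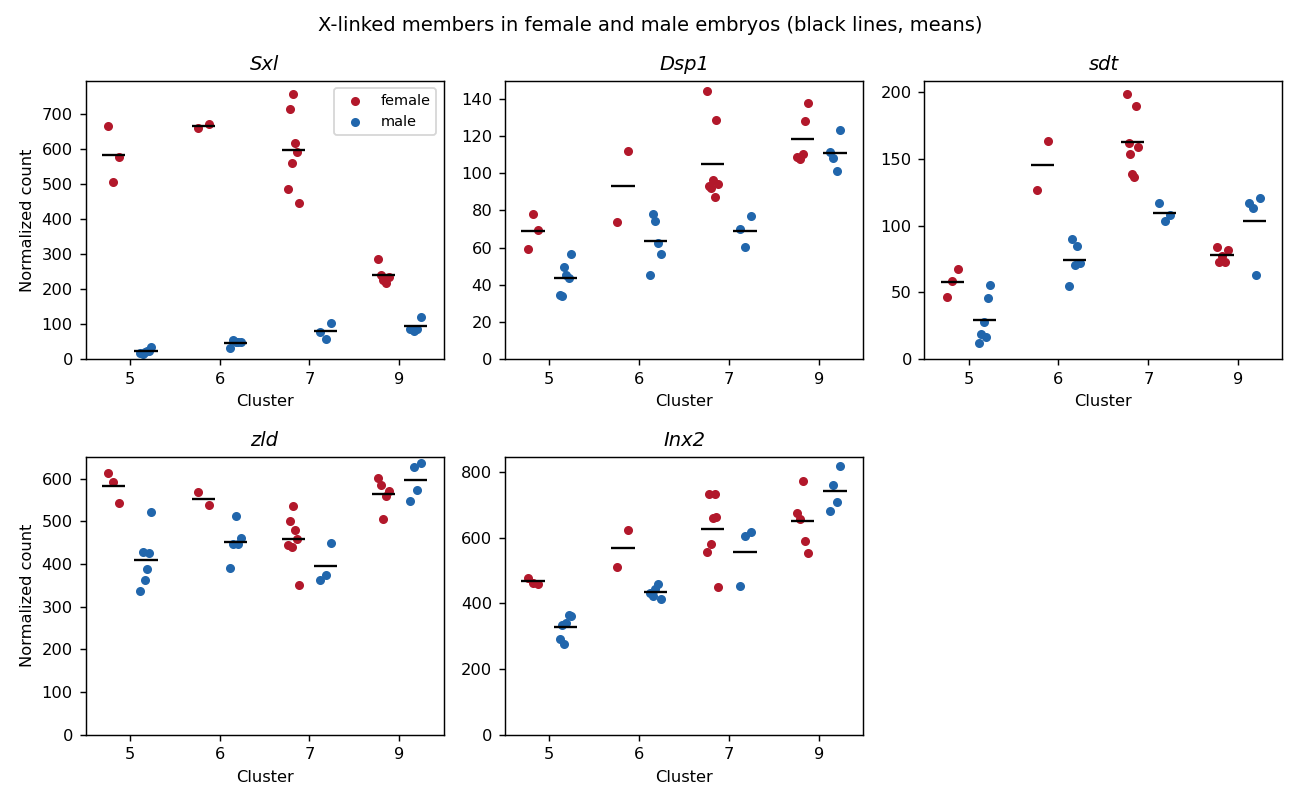
Normalized count of 5 X-linked members in female (red, left) and male (blue, right) embryos of clusters 5, 6, 7 and 9; each point is 1 embryo, black lines are means and vertical axes start at 0. For Sxl no female overlaps a male, with 3 females at 505 to 665 and 6 males at 15.2 to 35.4 in cluster 5.

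Against the gene lists, the members were a small part of each. The adhesion and polarity list held 25 genes, all tested, and 3 of them were members. In cluster 6 against positions 11-29, 14 of the 25 were called higher and 2 lower (20.7% and 36.8% of all genes tested), with a median log2 fold change of 1.09, against -0.23 over all genes. The largest was that of Nrt (neurotactin), 6.01, which missed the rule by its first level of 9.22, and armadillo, arm, reached 1.27. In cluster 4 against positions 11-29, 3 were called higher (Nrt, Gli and pyd) and 0 lower, where 3.7% and 20.8% of all genes were called. In cluster 9 against cluster 6, 8 were called higher and 3 lower, none of them a member, where 28.8% and 15.9% of all genes were called.

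The list of cytoskeleton and furrow genes held slam and 18 others. In cluster 6 against positions 11-29, 9 of 19 were called higher and 2 lower, beside the same 20.7% and 36.8% of all genes (median 0.94), with Septin5 at 5.39 and zip, the heavy chain of non-muscle myosin, at 1.49. In cluster 4 against positions 11-29 slam and Septin5 were called higher and RhoGEF2 lower (3.7% and 20.8% of all genes), and in cluster 9 against cluster 6, 2 were called higher and slam was the 1 called lower (28.8% and 15.9% of all genes). In the cell cycle list, which held trbl, 5 of 17 were called higher and 10 lower in cluster 6, where 20.7% and 36.8% of all genes were called (median -1.63). Its called genes included stg (String), whose RNA was at -3.14, and the mitotic inhibitor Z600 at 9.34, a gene with 1.10 normalized counts at positions 1-10. In cluster 9 against cluster 6, 6 genes of this list were called higher, among them stg at 3.57, and 2 lower (28.8% and 15.9% of all genes). Of the 31 transcription factors listed as maternal and zygotic, zld was the one member, and 8 were called higher and 12 lower in cluster 6 (20.7% and 36.8% of all genes, median -0.45), and 4 higher and 10 lower in cluster 4 (3.7% and 20.8% of all genes). The lists of Notch, EGF receptor, BMP, and Wnt and Hedgehog genes, glycolysis, replication-independent histones and cytoplasmic ribosomal proteins held 0 members.

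Genes listed as markers of particular cells also differed along pseudo-time. The summed level of 5 genes listed as pole cell markers was 311 to 391 at positions 1-10, 19 to 60.0 in cluster 5 and 6.70 to 14.2 in cluster 9. Its mean was highest in the youngest group, as for maternal RNA, so that this sum does not count pole cells. The summed level of 6 yolk nuclei and amnioserosa markers was 4.46 to 8.49, 87.1 to 124 and 196 to 319 in the same groups. That of 4 mesoderm markers was 0.235 to 2.83, 200 to 321 and 173 to 281. The table listed 0 of 15 markers of follicle cells and yolk proteins. The 3 genes of early zygotic transcription, sc, scw and esg, summed to 0 to 1.33 at positions 1-10 and to 184 to 341 in cluster 4. The part of cell composition in the members' levels was not tested.

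By annotation, all 31 members are protein-coding genes, with 8 on chromosome arm 2R, 5 on 2L, 6 on 3L, 6 on 3R and 6 on X. The share on X was 19.4%, against 18.9% of the other maternal transcripts, 12% of the zygotic genes and 17.5% of all annotated genes of the table. Coordinates are those of release 6 of the assembly. The gene hrg lies on 2R at 19663919 to 19669832 (minus strand), slam on 2L at 6372388 to 6377284 (plus strand), BNIP3 on 3L at 20514598 to 20519393 (minus strand) and Sxl on X at 7074550 to 7098053 (minus strand). The median exonic length was 4117 bases for members, 2395 for the other maternal transcripts, 2388 for the zygotic genes and 2146 for all annotated genes of the table. One member, Elba2, has a single exon in every transcript (3.23% of members), against 6.32% of the other maternal transcripts, 32% of the zygotic genes and 9.88% of all annotated genes. These shares are descriptions of an annotation and were not tested.

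Among the members, 2 pairs are head-to-head neighbours. On 2L, insv (2575280 to 2576997, minus strand) and Elba2 (2577687 to 2579179, plus strand) have 689 bases between their starts, and on 3R, Keap1 (17073942 to 17079945, minus strand) and kuk (17080244 to 17084781, plus strand) have 298 bases between theirs. The table held 1583 such pairs with at most 1000 bases between the starts. In at least 1 of them were 16 of 31 members (51.6%), against 41.6% of all annotated genes of the table. The share was 48.2% for the other maternal transcripts and 8.0% for the zygotic genes. The partners that were not members had log2 fold changes between -2.66 (CG9921, partner of Dsp1) and 1.50 (Nnf1a, partner of HnRNP-K) in cluster 6 against positions 11-29, and within the member pairs those of insv and Elba2 were 2.52 and 2.30 and those of Keap1 and kuk 3.31 and 2.61. In cluster 9 against cluster 6, insv had -2.17 and Elba2 -5.56, and Keap1 had -0.78 and kuk -0.90.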

How the data were processed

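Single embryos were profiled with a modified CEL-Seq2 protocol. The authors aligned and counted reads with STAR 2.7.8a (STARsolo) and deposited UMI counts per gene and barcode for 2 libraries, of which the 96 barcodes of the first were used. They also deposited a normalized score for 84 embryos and 7629 genes, made as each UMI count divided by the embryo's total, multiplied by the smallest total, plus 0.1. That 0.1 was subtracted here, and the counts were recovered by dividing by the smallest step of each embryo; 100% of values were whole within 0.0001. Cluster, sex and order came from the study's supplementary tables and the table's column order, and cage and interval from embryo names. Positions are those of the column order, and the study's printed list of embryos differs from it from position 42 on. The embryo at position 84 is not in that printed list and was taken as a member of the last cluster. Each embryo counted as 1 replicate, so p-values measure the spread between embryos of the same cages.

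The 7619 genes that reached 3 counts in 5 or more embryos were tested in 1 edgeR 4.0.16 quasi-likelihood fit with 9 groups and TMM factors (R 4.3.3), and for sex with cluster as a factor, in clusters 5 to 9 and in clusters 6, 7 and 9. DESeq2 1.42.0, no filter, a minimum of 10 counts, library totals, cage as a covariate, leaving out embryos of cluster 4 and other limits of the rule were alternatives. The members, lists and tests were chosen with earlier results of these data known. Named were the 10 members with the largest ratio, the 10 highest at positions 50-58, up to 3 called members per direction with the largest log2 fold change, the genes nearest each limit, and members of the lists; genes such as CG11791, Bacc and the partners of members were added after their values were seen. Genes were matched by symbol to Ensembl annotation of release 6 of the assembly (7513 of 7629, with all 31 members), newer than the one the authors used. Tables and figures used Python 3.11.15, numpy 2.4.6, pandas 2.3.3 and matplotlib 3.10.9, and the tests were tested on simulated data. Sequences, the promoter motif search and the library of each embryo were not analysed here. Of the members, 1 is counted in all totals but not reported by itself here.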

Additional observations from a re-analysis of the deposited data

Results flagged for a closer look

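In groups of 4 to 10 embryos, 192 sets of values of single members or of their sum were examined for an embryo far from the others, and 5 had one; chance flags about 1 in 20 groups. Of these, 3 concern the same embryo, at position 41 in cluster 3, which is the shallowest of all with 274425 UMIs: its normalized counts were 9 for Elba2 (next lowest 32.2), 15 for CG8929 (next lowest 70.7) and 29 for Dsp1 (next highest 18.7). Without that embryo, a setting chosen after seeing the data, the number of members called stayed at 1 in cluster 3 against cluster 2 and at 14 in cluster 4 against cluster 3. CG8929 also had a high embryo at position 8, with 85.9 (next highest 70.1), and Atg18a a low embryo of cluster 7 at position 67, with 153 (next lowest 195).

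The effect of sex on Sxl differed between clusters 5 to 9 (edgeR interaction test, adjusted p = 1.87e-11), a test that includes the embryos of the rule in cluster 5; in clusters 6, 7 and 9 alone, a setting chosen after seeing the data, the adjusted p was 2.02e-06. The log2 ratio of females to males was 3.87 in cluster 6 and 1.35 in cluster 9, and females were higher in every cluster. For sdt the log2 ratio of females to males differed between clusters 6, 7 and 9 (edgeR interaction test, adjusted p = 0.00425). It was 1.00 in cluster 6 and -0.43 in cluster 9, and with cluster 5 added this difference did not pass (adjusted p = 0.0642). In clusters 6 and 9 every male came before every female in pseudo-time. For Sxl and sdt alike, sex and position therefore cannot be told apart in those clusters. In clusters 5 and 7 females and males were interleaved in pseudo-time, and the Sxl counts of the sexes did not overlap in either.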

How the results depend on the processing

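The number of members moved with the limits of the rule: 214 genes at a 2-fold limit and 19 at a 4-fold limit, 42 with a minimum of 5 at positions 1-10 and 19 with a minimum of 20. With cluster 6 in place of positions 50-58 it was 46, and with TMM-scaled counts 38, and both held all 31. In cluster 4 against positions 11-29, leaving out each embryo of cluster 4 gave between 10 and 21 members called higher, and in cluster 4 against cluster 3 between 8 and 18. In cluster 9 against cluster 6, DESeq2 called 1 member higher, where edgeR called 0. For sex, clusters 6, 7 and 9 alone gave 1 member called higher. The cause was not tested, beyond the fewer embryos in the fits that leave some out. The other 104 recomputed counts were within 1.5 times the main ones. Of the recomputed values of single members 757 kept their direction and side of the threshold, 10 gained a call, 8 lost one and none reversed. No paired analysis was possible because the embryos form no groups with shared replicate numbers.

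Depth limits members near 10 normalized counts, which had few UMIs in the shallowest embryos. Cluster 4 holds 3 embryos. Clusters were made from the same values, and comparisons share embryos, so that calls in one are not independent of those in another.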
